A study of Mus musculus with 32 samples.

Results

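Gene expression in photoreceptors of the Per mutant was compared with that of the wild type at circadian time 22 (CT22), late in the subjective night and ahead of the morning peak in outer segment phagocytosis. The comparison rests on the 8 of 32 libraries whose labels name CT22. The 4 mutant libraries (KO) came from Per1-/-Per2Brdm1 mice and the 4 control libraries (WT) from wild type mice, all 6-week-old males of the strain C57BL/6/J x 129 SvEvBrd. The remaining 24 libraries cover the same genotypes at CT19, CT1 and CT10 and are used below only to see whether the differences recur. Photoreceptors, the light-sensing rods and cones, were taken from snap-frozen eyes by laser capture microdissection, and mRNA was sequenced. The mutation is carried by every cell of the animal, and whether the WT mice were littermates of the mutants is not given in the sources used here.

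The circadian clock is a transcriptional loop. BMAL1 (encoded by Arntl) and CLOCK bind E-box sequences and activate the Per and Cry genes, whose proteins return to the nucleus and repress that activation. The same pair drives the nuclear receptors Nr1d1 and Nr1d2, which repress Arntl, and the PAR bZIP factors Dbp, Tef and Hlf, which activate genes through D-boxes, where Nfil3 competes with them as a repressor. In the retina this loop runs in photoreceptors and other cells and is known for its part in the daily timing of outer segment shedding, dopamine and melatonin signalling and visual sensitivity. Outer segments are stacks of disks that carry the phototransduction proteins; their tips are shed each morning and engulfed by the neighbouring pigment epithelium.

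In the mutant libraries the transcripts of the clock's negative limb and of its D-box activators were higher, and Arntl and Nfil3 were lower. No gene of the rod phototransduction list (21 tested) or of the phosphatidylserine and phagocytosis list (32 tested) was called. With 1.53% of all genes called, lists this short may hold no call, so this is no result about their members. Of 17871 genes tested, 273 differed between the genotypes at CT22 (1.53%, edgeR quasi-likelihood test, adjusted p under 0.05; such genes are termed called), 161 higher in KO (0.901%) and 112 lower (0.627%). Without adjustment, 2149 of the 17871 genes had a p under 0.05, the share against which such counts in the gene lists below are read. A log2 fold change of at least 1 in either direction was reached by 85 of the called genes (53 higher and 32 lower), and 112 lay below 0.58 in absolute value, down to 0.227. The median log2 fold change over all tested genes was 0.01. Groups whose 4 KO values all lay above or all below the 4 WT values were found for 1199 genes (6.71%; 645 above, 3.61%, and 554 below, 3.1%), among them 146 and 99 of the called genes. The count of calls depended on single libraries: leaving out WT replicate 3 gave 175 and leaving out KO replicate 3 gave 170, and with only the 8 CT22 libraries in the fit it was 112. The 112 lower genes numbered 72 without WT replicate 3, 65 without WT replicate 6, 55 when KO replicate 2 was dropped and 59 when KO replicate 3 was dropped, and the 161 higher genes numbered 103 without WT replicate 3.

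The CT22 libraries held 25402578 to 33397955 counts, so that 1 CPM (a count scaled to library size) stood for at least 25.4 counts. Values are given as CPM after scaling, in the order of replicates 1, 2, 3 and 6 for WT and 1 to 4 for KO. The labelled tissue was described with 8 rod markers, which had a mean level of 12.2 ± 0.116 log2 CPM in WT and 12.1 ± 0.1997 in KO (SD, n = 4 each). An exact permutation test between the genotypes, two-sided, gave p = 0.314, where 0.0286 is the smallest p that 4 against 4 allow. This p does not test which tissue was taken. The time was chosen by another marker level of the same libraries, described next, so it is no independent evidence of equal rod content. The 40 markers of bipolar, amacrine and Müller cells, which lie next to the photoreceptor layer, had a mean level of 4.18 ± 0.165 log2 CPM in WT and 4.29 ± 0.28 in KO (SD, n = 4 each). CT22 was chosen with the knowledge that this level is closest between the genotypes at that time. These values are therefore a description, and a permutation p for them carries no weight and is not given. Lens markers ranged widely, from 2.78 to 7.08 log2 CPM in WT and from 3.298 to 5.54 in KO (exact permutation p = 0.8), with the highest level in WT replicate 6. Pigment epithelium markers were highest in WT replicate 1, at 2.16 log2 CPM against 0.178 to 0.929 in KO. Without these WT libraries, a choice made after seeing the marker levels, 118 genes were called, 79 higher and 39 lower. In bulk samples, fewer cells of a type and less RNA per cell cannot be told apart.

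**Figure D1:**
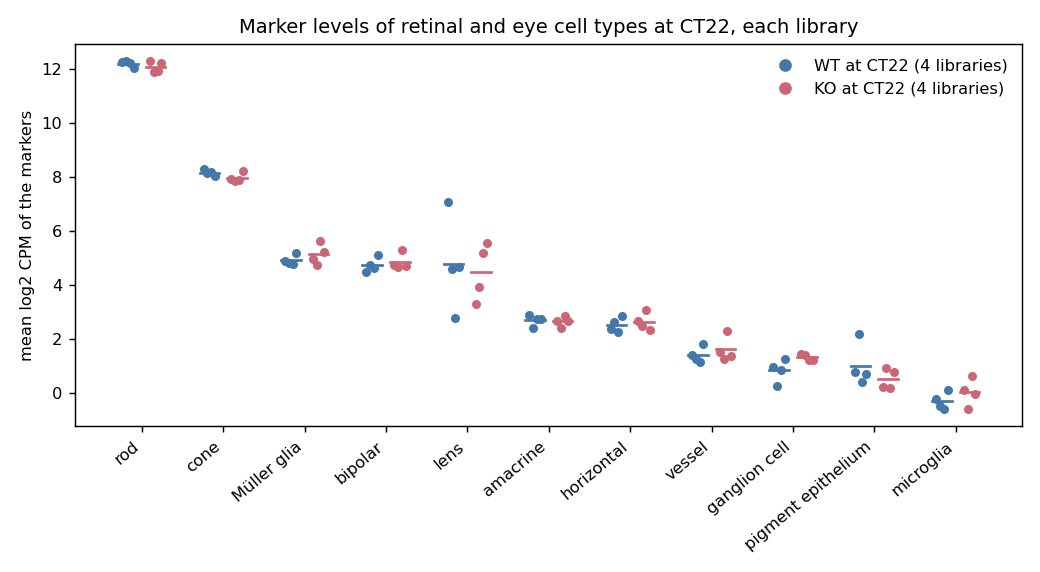
Mean log2 CPM of the tested markers of 11 retinal and eye cell types in each of the 8 CT22 libraries (points) with group means (lines). Rod markers stood near 12 in all 8 libraries, and the lens level was highest in a single WT library, at 7.08.

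The targeted genes were both more abundant in KO. Per1, on GRCm38 chromosome 11, stood at 112, 129, 146 and 139 CPM in the WT libraries and at 201, 170.1, 215 and 323 in the KO libraries. Per2, on chromosome 1, stood at 33.4, 31.4, 33.9 and 41.5 CPM in WT and at 212, 168, 186 and 267 in KO. All 4 KO values lay above all 4 WT values for both genes. Their log2 fold changes were 0.79 (SE 0.148, adjusted p 0.00196) for Per1 and 2.57 (SE 0.182, adjusted p 9.65e-11) for Per2. The call for Per1 was lost when only the CT22 libraries were fitted and when WT replicates 1 and 6 were left out. Counts over a whole gene do not show whether its protein is made or which exons are missing, so these values do not check the mutations themselves.

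Of the 26 core clock genes, 14 were called (53.8%, against 1.53% of all genes tested), 12 higher and 2 lower, and the list's median log2 fold change was 0.41 against 0.01 over all genes. The groups did not overlap for any of the 14. The list was chosen with earlier results of these libraries known, so its count is a description and no independent evidence.

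All 5 Per and Cry genes rose. Per3, the third Period gene, which was not mutated, stood at 125, 157, 172 and 133 CPM in WT and 339, 315, 332 and 473 in KO, a log2 fold change of 1.31 (SE 0.173, adjusted p 1.31e-05). The highest KO value belonged to replicate 4, which was also the highest KO library for Per1 and Per2. Cry2, a cryptochrome repressor, stood at 71.2, 77.6, 74.9 and 77.6 CPM in WT and 170.4, 166, 153 and 159 in KO. The values within each genotype were close together, and the log2 fold change was 1.11 (SE 0.08299, adjusted p 1.01e-10). Cry1 changed less, from 63.8, 58.6, 63.4 and 72.6 CPM in WT to 94.97, 94.9, 92.4 and 84.7 in KO (log2 fold change 0.51, SE 0.0713, adjusted p 3.17e-05).

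Ciart, which encodes the repressor CHRONO that binds BMAL1 and CLOCK, had the largest relative change of the clock genes. It stood at 2.36, 1.75, 1.89 and 2.81 CPM in WT and at 14.3, 16.7, 17.9 and 20.5 in KO, 7.87-fold higher (log2 fold change 2.98, SE 0.227, adjusted p 1.36e-10). Every KO library exceeded the highest WT library several times over. Bhlhe41, encoding the E-box repressor DEC2, rose from 169.9, 183, 178 and 215 CPM in WT to 374, 310.3, 341 and 356 in KO (log2 fold change 0.89, SE 0.101, adjusted p 7.24e-07). The groups of its paralog Bhlhe40 (DEC1) overlapped, and the difference of 0.53 (95% interval 0.061 to 0.9997) did not pass (adjusted p 0.337).

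The D-box activators moved together and their competitor moved the other way. Dbp stood at 39.4, 38.6, 36.2 and 40.7 CPM in WT and 165, 149.8, 153 and 125 in KO (log2 fold change 1.94, SE 0.127, adjusted p 5.98e-12). Tef stood at 181, 188, 183 and 208 CPM in WT and 447, 426, 409 and 421 in KO (log2 fold change 1.16, SE 0.0702, adjusted p 1.82e-12), and Hlf at 65.6, 72.8, 69.2 and 77.9 in WT and 151, 156, 152 and 131 in KO (log2 fold change 1.05, SE 0.112, adjusted p 2.08e-07). None of these groups overlapped. Nfil3, the D-box repressor, stood at 26.2, 25.9, 23.95 and 26.2 CPM in WT and fell to 10.5, 8.77, 10.7 and 7.901 in KO, 2.704-fold lower (log2 fold change -1.44, SE 0.189, adjusted p 1.03e-05). Exons of Bhlhe41, Dbp, Tef and Nr1d1 overlap a tested gene on the opposite strand (Gm43909, Sphk2, Gm17597 and Thra), and without a stated strand setting their reads cannot be told apart. The same limit holds for Tspan4, Ndrg1, Dnah9, Atp8a1 and Gas6 below.

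Both REV-ERB receptors rose and 1 activator fell. Nr1d1 (REV-ERBα) stood at 168, 186, 201 and 200.1 CPM in WT and 328, 292, 306 and 296 in KO, and Nr1d2 (REV-ERBβ) at 175, 182, 163 and 191 in WT and 277, 310.1, 302 and 358 in KO. Their log2 fold changes were 0.695 (SE 0.102, adjusted p 5.86e-05) and 0.81 (SE 0.0835, adjusted p 1.04e-07). Arntl, which encodes BMAL1, fell from 165, 155, 154 and 154 CPM in WT to 101, 81.03, 98.4 and 96.7 in KO (log2 fold change -0.73, SE 0.0628, adjusted p 1.78e-09), with 3 of 4 WT values almost identical. Clock, its partner, stood at 184, 178, 159 and 178 CPM in WT and 152, 165, 145 and 149.8 in KO and overlapped. Its log2 fold change of -0.19 (95% interval -0.37 to -0.013) did not pass (adjusted p 0.375). Npas2, which can replace Clock, was near the detection limit at 0.284 to 1.33 CPM over both groups.

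Rora and Rorb, receptors that compete with REV-ERB, and genes that mark PER and CRY proteins for breakdown did not pass. Rorb stood at 925, 926, 985 and 970.4 CPM in WT and 783, 673, 679.9 and 825 in KO. Its groups did not overlap, yet its log2 fold change of -0.36 (SE 0.121) had an adjusted p of 0.158. The log2 fold change of Rora was -0.19. Those of Csnk1d, Csnk1e, Csnk1a1, Fbxl21 and Btrc, which encode kinases and F-box proteins, lay between -0.1997 and 0.099, with 95% intervals within 1 log2 unit of 0 for each.

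**Figure D2:**
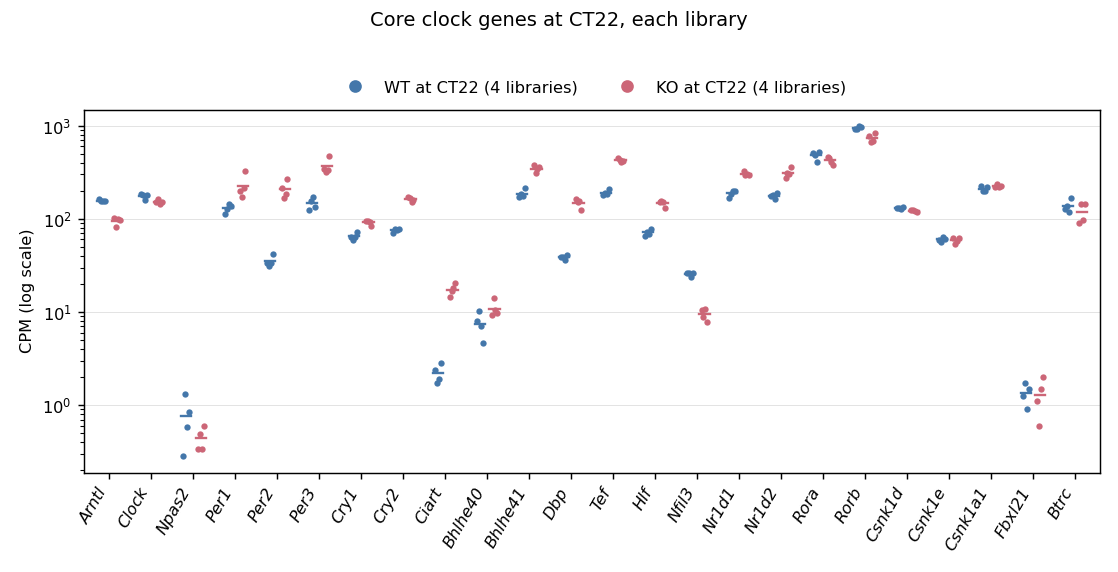
CPM (log axis) of 24 core clock genes in each CT22 library, with points for the 4 WT and 4 KO libraries and lines for group means. The KO points of Per2, Ciart, Dbp, Cry2 and Tef lie clear above the WT points, and those of Arntl and Nfil3 lie below, for example Nfil3 at 10.5, 8.77, 10.7 and 7.901 CPM in KO.

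Promoter sequences show where these genes carry the letters that clock factors are known to bind. The 250 bases before each RefSeq gene start (build GRCm38.p6) were searched on both strands for the E-box CACGTG, the D-box written as TTATGTAA or TTACGTAA, and the ROR element TAGGTCA. An E-box was present for 5 of the 11 called-higher clock genes with a promoter in the table (45.5%: Per1, Cry1, Ciart, Bhlhe41 and Tef), compared with 9.49% of 11433 tested genes with a promoter and 6.02% of all 32851 promoters in the table. A D-box was found for Per3 only among these genes, compared with 0.778% of tested genes, and the ROR element only for Nfil3 among the called clock genes, compared with 1.94% of tested genes. None of the 6 uncalled clock genes with a promoter held any of the motifs. A match is a description of the letters and not a binding site.
The promoters below carry the motifs, 5′ to 3′ on the gene's own strand, with the motif in capitals. Ciart (chr3:95882229-95882478, minus strand) holds 3 E-boxes. Per1 (chr11:69098699-69098948, plus strand, the first of its gene starts), Cry1 (chr10:85185055-85185304, minus strand) and Bhlhe41 (chr6:145865421-145865670, minus strand) hold 1 each, Per3 (chr4:151044666-151044915, minus strand) holds 2 D-boxes, and Nfil3 (chr13:52981040-52981289, minus strand) holds 1 ROR element, which reads TGACCTA here because it lies on the opposite strand.
Ciart: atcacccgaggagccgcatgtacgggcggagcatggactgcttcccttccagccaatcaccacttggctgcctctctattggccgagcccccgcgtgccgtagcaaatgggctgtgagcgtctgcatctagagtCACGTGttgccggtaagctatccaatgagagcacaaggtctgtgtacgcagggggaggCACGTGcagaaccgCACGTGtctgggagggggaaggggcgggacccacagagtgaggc
Per1: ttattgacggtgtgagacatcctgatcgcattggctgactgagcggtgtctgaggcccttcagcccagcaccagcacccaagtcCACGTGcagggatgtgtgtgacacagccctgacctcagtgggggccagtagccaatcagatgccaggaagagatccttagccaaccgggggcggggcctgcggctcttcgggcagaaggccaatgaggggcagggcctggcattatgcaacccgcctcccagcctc
Cry1: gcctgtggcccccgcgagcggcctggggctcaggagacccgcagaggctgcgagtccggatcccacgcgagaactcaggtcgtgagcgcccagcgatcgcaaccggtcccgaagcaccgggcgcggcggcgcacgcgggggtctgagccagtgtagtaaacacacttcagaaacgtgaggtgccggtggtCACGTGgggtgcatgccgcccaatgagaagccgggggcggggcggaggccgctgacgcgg
Bhlhe41: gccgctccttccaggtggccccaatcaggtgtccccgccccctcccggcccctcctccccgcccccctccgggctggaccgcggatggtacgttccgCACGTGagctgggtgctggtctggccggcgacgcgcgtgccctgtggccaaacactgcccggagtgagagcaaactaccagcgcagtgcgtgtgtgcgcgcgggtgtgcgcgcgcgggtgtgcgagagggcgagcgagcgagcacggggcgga
Per3: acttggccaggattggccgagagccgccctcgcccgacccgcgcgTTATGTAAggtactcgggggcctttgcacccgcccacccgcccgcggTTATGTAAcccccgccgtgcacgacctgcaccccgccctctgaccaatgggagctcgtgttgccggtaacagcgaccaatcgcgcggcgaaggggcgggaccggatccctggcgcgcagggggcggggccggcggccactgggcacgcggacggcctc
Nfil3: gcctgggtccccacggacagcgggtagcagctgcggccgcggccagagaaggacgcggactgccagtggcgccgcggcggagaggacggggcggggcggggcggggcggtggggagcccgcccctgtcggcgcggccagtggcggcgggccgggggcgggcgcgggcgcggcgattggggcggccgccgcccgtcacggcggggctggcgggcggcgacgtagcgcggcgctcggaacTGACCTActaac

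Outside the clock list, an E-box lay in the promoter of 17 of 110 genes higher in KO (15.5%) and of 10 of 78 genes lower in KO (12.8%). A D-box lay in 7 of the 110 higher (6.36%) and in 0 of the 78 lower. The 7 were Trak1, Txndc16, Coq10b, Gm15348, Smim10l1, Jdp2 and Galnt13, named after their values were seen. Coq10b, a mitochondrial coenzyme Q-binding protein that also carries an E-box, is among the genes described next.

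Of 16 tested genes known as clock outputs in other tissues, 4 rose and none fell, where 0.901% of all tested genes rose and 0.627% fell. The list's median log2 fold change was 0.26 against 0.01 over all genes, and DESeq2 called 7 of its members (445 over all genes). Coq10b stood at 13.7, 14.7, 12.6 and 14.7 CPM in WT and 31.8, 29.3, 25.7 and 29.02 in KO (log2 fold change 1.06, SE 0.156, adjusted p 6.34e-05). Usp2, a deubiquitinase, stood at 202, 248, 236 and 211 CPM in WT and 319.8, 300.0, 358 and 381 in KO (log2 fold change 0.599, adjusted p 0.000153). For both genes the lowest KO library exceeded the highest WT library. Tsc22d3, the glucocorticoid-induced leucine zipper, rose by 0.76 on the log2 scale (adjusted p 0.000284) and Tspan4, a tetraspanin, by 0.63 (adjusted p 0.00425). The call of Tspan4 was lost without WT replicates 1 and 6. It was also lost under the replicate block, a fit of only the CT22 libraries with the replicate number as a block.

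Outside the clock, a signalling scaffold and a pair of collagen chains were among the genes that rose. Akap5, which anchors protein kinase A and calcineurin at membranes, stood at 1.92, 1.22, 1.497 and 1.16 CPM in WT and 8.87, 11.2, 15.7 and 13.4 in KO. It was 8.44-fold higher (log2 fold change 3.08, SE 0.228, adjusted p 9.65e-11), while the other 10 tested anchoring proteins of its list were not called. Col4a3, a type IV collagen chain of specialised basement membranes, stood at 24.5, 28.4, 19.6 and 30.1 CPM in WT and 187, 225, 243 and 163 in KO, and was 7.97-fold higher (log2 fold change 2.99, SE 0.256, adjusted p 8.99e-09). Col4a4, the chain that assembles with it, stood at 21.3, 27.5, 21.2 and 23.5 CPM in WT and 62.4, 79.4, 83.2 and 84.3 in KO (log2 fold change 1.73, SE 0.1996, adjusted p 1.73e-06). The lowest KO library lay above the highest WT library for all 3 genes.

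Several receptors, enzymes and small GTPases followed. Gzmm, granzyme M, a serine protease of cytotoxic lymphocytes, stood at 42.4, 37.4, 51.7 and 39.9 CPM in WT and 216, 146, 194 and 123 in KO (log2 fold change 1.99, adjusted p 3.64e-07). Rasl10b, a Ras-like small GTPase, was tight in WT at 30.5, 30.3, 32.3 and 30.1 CPM and stood at 118, 90.2, 96.2 and 80.5 in KO (log2 fold change 1.64, adjusted p 1.88e-10). Unc5c, a netrin receptor, stood at 3.34, 7.59, 3.85 and 4.04 CPM in WT, where replicate 2 was high, and at 16.7, 18.5, 15.3 and 18.6 in KO (log2 fold change 1.88, adjusted p 0.00211). None of these groups overlapped. The same held for Adamtsl5, a secreted matrix protein, at 1.56 (adjusted p 6.76e-05), Tpbgl at 1.95 (adjusted p 0.00058, exons shared with Gm10605 on the opposite strand), Pabpn1l, a poly(A)-binding protein, at 1.48 (adjusted p 0.00263) and Klhl30, a kelch-like protein, at 2.15 (adjusted p 0.00321) on the log2 scale. Without WT replicates 1 and 6 the calls of Unc5c and Pabpn1l were lost.

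Stk3, the Hippo pathway kinase MST2, was more variable, at 13.7, 15.98, 10.4 and 33.9 CPM in WT and 71.04, 105, 77.3 and 44.01 in KO (log2 fold change 2.01, SE 0.449, adjusted p 0.0178). Its call was lost in 5 of 17 alternative analyses, with an adjusted p of up to 0.0833 when 1 library was left out (WT replicate 3). Antxr2, a cell-surface receptor that binds collagen and laminin, rose by 1.52 (SE 0.389, adjusted p 0.0444) and its call was lost in 12 of them, with an adjusted p of up to 0.165 when 1 library was left out (WT replicate 3). Among the genes with the smallest p-values, Eif3b, a subunit of translation initiation factor 3, stood at 70.2, 66.05, 74.2 and 73.7 CPM in WT and 209, 176, 197 and 155 in KO (log2 fold change 1.37, SE 0.0886, adjusted p 5.46e-12). Pdzd8, a lipid transfer protein of the endoplasmic reticulum, stood at 125, 123, 118 and 132 CPM in WT and 282, 245, 231 and 209 in KO (log2 fold change 0.95, SE 0.0808, adjusted p 1.45e-09). The groups of all 4 genes were separate.

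The lowest fold change was that of Fabp7, the brain fatty acid-binding protein, which stood at 5.68, 7.69, 4.98 and 3.47 CPM in WT and 0.275, 0.174, 0.248 and 0.0738 in KO. It was 27.1-fold lower (log2 fold change -4.76, SE 0.505, adjusted p 2.2e-07). Fabp7 is known from glia. The 14 Müller glia markers had a median log2 fold change of 0.27, all 14 were positive, and none was called. They belong to the marker level known to be closest between the genotypes when CT22 was chosen. These values therefore do not test glial content. Hcls1, a cortactin-like actin regulator known from blood cells, stood at 61.9, 77.2, 62.97 and 86.8 CPM in WT and 14.6, 12.4, 14.6 and 19.4 in KO, 4.75-fold lower (log2 fold change -2.25, SE 0.2004, adjusted p 1.07e-08). The summed level of the 8 tested microglia markers was 13.02 to 19.44 CPM in WT and 14.21 to 20.997 in KO, and none of them was called.

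Dock8, an exchange factor for the GTPase CDC42, stood at 25.5, 11.5, 24.4 and 35.5 CPM in WT and 5.23, 7.66, 8.696 and 8.38 in KO (log2 fold change -1.69, SE 0.278, adjusted p 0.000402), a call lost with only the CT22 libraries and under the replicate block. Abi3, an adaptor of the ABI family in actin regulation, fell by 1.82 (adjusted p 0.000671) and shares exons with Gngt2 and Zfp652 on the opposite strand. Ptprn, a membrane protein of dense-core vesicles, stood at 168, 92.9, 195 and 164 CPM in WT and 45.7, 32.1, 47.3 and 58.04 in KO (log2 fold change -1.76, SE 0.296, adjusted p 0.00074). For Dock8, Abi3 and Ptprn, WT replicate 2 had the lowest WT value and still lay above every KO library. Prtg (protogenin), an immunoglobulin superfamily receptor, fell by 1.49 (adjusted p 1.18e-05), Ccdc63, known from sperm flagella, by 1.32 (adjusted p 6.73e-05), Wwc1 (KIBRA), a Hippo pathway scaffold, by 1.15 (adjusted p 0.00363), and Zfp39, a zinc finger protein, by 1.22 (adjusted p 0.000145) on the log2 scale.

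Ndrg1, a hypoxia- and stress-responsive gene, was among the smallest p-values of the lower genes. It stood at 481, 461, 459 and 502 CPM in WT and 281, 282, 288 and 256 in KO (log2 fold change -0.78, SE 0.07196, adjusted p 8.99e-09), with no overlap. Dnah9, an axonemal dynein heavy chain, stood at 44.1, 41.05, 24.1 and 101 CPM in WT and 21.998, 18.5, 24.3 and 15.99 in KO (log2 fold change -1.38, SE 0.336, adjusted p 0.03). WT replicate 3 overlapped the KO values and WT replicate 6 was high, and the call was lost in 10 of 17 alternatives, with an adjusted p of up to 0.237 when 1 library was left out (WT replicate 6).

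**Figure D3:**
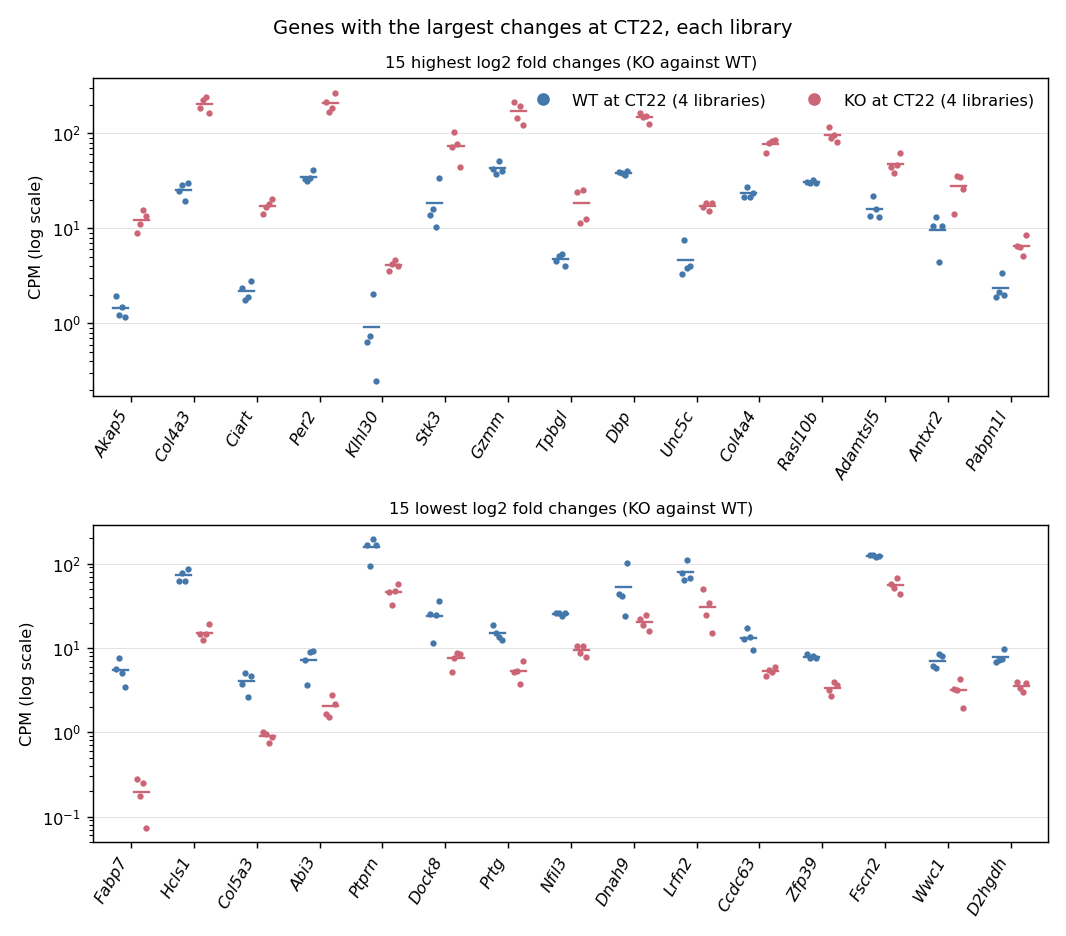
CPM (log axis) in each CT22 library for the 15 genes with the highest (top) and the 15 with the lowest (bottom) log2 fold changes among called genes with an average of at least 1 log2 CPM. Points are libraries and lines are group means; apart from Dnah9, the groups of the genes shown are separate.

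Among 23 basement membrane and collagen genes, 4 were called (17.4%, against 1.53% of all genes tested), 2 in each direction, and the median log2 fold change was 0.17. The 2 higher were Col4a3 and Col4a4. The other 4 type IV chains were not called. Col5a3, a type V collagen chain, stood at 3.75, 5.07, 2.63 and 4.63 CPM in WT and 1.01, 0.9402, 0.745 and 0.886 in KO (log2 fold change -2.16, SE 0.349, adjusted p 0.000237). Lamc1, the laminin gamma 1 chain, stood at 36.8, 37.5, 27.4 and 29.97 CPM in WT and 17.3, 24.1, 16.5 and 19.2 in KO (log2 fold change -0.77, SE 0.124, adjusted p 0.000232). Both were separate between the genotypes.

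No rod phototransduction gene was called in edgeR. At an unadjusted p under 0.05 there were 7 of 21, where 2149 of all 17871 tested genes reached this. DESeq2 called 1 of them, and 445 over all genes. Of the 21 log2 fold changes at CT22, 19 were negative and 2 positive. At the other times, without covariates, 8 of the 21 were called lower and 0 higher, where 4.69% of all tested genes were called lower. The lack of edgeR calls at CT22 therefore does not show that these genes were unchanged. The 21 tested members had a median log2 fold change of -0.20, with 95% intervals within 1 log2 unit of 0 for all 21. Pde6a, a catalytic subunit of the rod phosphodiesterase, stood at 5068, 4071, 4209.6 and 5421 CPM in WT and 4265, 3415, 3872 and 3420.3 in KO (log2 fold change -0.33, 95% interval -0.56 to -0.097, adjusted p 0.175). Sag, rod arrestin, went the other way, at 5917, 4895, 6184 and 4362 CPM in WT and 8907, 8404, 7663 and 7111 in KO. Its groups did not overlap, and its log2 fold change of 0.59 (95% interval 0.23 to 0.95) did not pass (adjusted p 0.0978).

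Of 18 outer segment genes 1, Fscn2, was called (5.56%). The ribbon synapse and photoreceptor transcription factor lists also held 1 call each (4.0% and 7.69%), against 1.53% of all genes tested. In lists this short, 1 call is no result about the list. Fscn2, the photoreceptor fascin that bundles actin, stood at 125, 125, 121 and 123 CPM in WT and 57.2, 51.8, 67.95 and 43.1 in KO, 2.24-fold lower (log2 fold change -1.16, SE 0.155, adjusted p 1.4e-05). The 4 WT values lay within a few CPM of each other and far above the KO values. Of 25 ribbon synapse genes, Lrfn2, a synaptic adhesion protein, fell from 78.3, 64.02, 111 and 68.3 CPM in WT to 49.9, 24.8, 34.1 and 15.1 in KO (log2 fold change -1.37, SE 0.342, adjusted p 0.0361), a call lost in 10 of 17 alternatives, with an adjusted p of up to 0.145 when 1 library was left out (WT replicate 3). Of 13 photoreceptor transcription factors, Esrrb, an estrogen-related receptor of rods, fell by 0.44 (adjusted p 0.0156), a call lost in 7, with an adjusted p of up to 0.0808 when 1 library was left out (KO replicate 2). None of the 6 retinoid cycle genes was called in edgeR, while DESeq2 called 1 and 1 had an unadjusted p under 0.05; the smallest p was that of the retinol dehydrogenase Rdh8 (log2 fold change -0.298, adjusted p 0.0949).

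Genes tied to the phagocytic rhythm showed no called member at this time. Of 32 tested genes for phosphatidylserine exposure, bridging ligands, receptors and engulfment, 0 were called in edgeR or DESeq2 and 2 had an unadjusted p under 0.05, and their log2 fold changes ran from -0.38 to 0.68 with a median near 0 (0.0055). For 27 of them the 95% interval lay within 1 log2 unit of 0. Atp11a, a phosphatidylserine flippase, stood at 586, 632, 616 and 544 CPM in WT and 737, 657, 709 and 771 in KO (log2 fold change 0.27, 95% interval 0.069 to 0.48, adjusted p 0.21). Atp8a1, another flippase, stood at 84.8, 86.8, 78.5 and 89.97 CPM in WT and 69.9, 79.7, 67.9 and 69.2 in KO (log2 fold change -0.25, 95% interval -0.45 to -0.045, adjusted p 0.279). Gas6, a bridging ligand that binds exposed phosphatidylserine, had a log2 fold change of -0.16 (95% interval -0.34 to 0.016, adjusted p 0.485).

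Dopamine, melatonin and cAMP genes (18 tested), immediate early genes (17), glucose and lactate genes (21), unfolded protein response genes (21), heat shock genes (14), clock-linked cell cycle genes (13) and mitochondrially encoded genes (11) had 0 calls each in edgeR, which called 1.53% of all tested genes. In that order, 1, 2, 8, 4, 1, 4 and 2 of them had an unadjusted p under 0.05, where 2149 of all 17871 tested genes did. The glucose and lactate, unfolded protein response, cell cycle and mitochondrially encoded lists lay above that share. The dopamine, melatonin and cAMP, immediate early and heat shock lists did not. Whether any list departs from the share was not tested. DESeq2 called 0, 1, 2, 1, 1, 2 and 0 of them, and 445 over all genes. All 11 mitochondrially encoded genes had a log2 fold change below 0, with a median of -0.33. Adcy1, the calcium-stimulated adenylyl cyclase of photoreceptors, stood at 368, 406, 406 and 460.3 CPM in WT and 529, 586, 602 and 469 in KO without overlap and did not pass (log2 fold change 0.41, adjusted p 0.117). Hk2, the hexokinase enriched in photoreceptors, stood at 1487, 1356, 1550.0 and 1584 CPM in WT and 1317, 941, 1132 and 1118 in KO (log2 fold change -0.41, adjusted p 0.0933), and Hsp90aa1, a chaperone, had a log2 fold change of -0.44 (adjusted p 0.0551). Nr4a3, an activity-induced nuclear receptor, had a log2 fold change of -1.41 (95% interval -2.21 to -0.61, adjusted p 0.065).

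In lipid metabolism, 2 of 32 fatty acid genes fell (6.25%, against 0.627% of all genes tested), and DESeq2 called 4 members of the list. Elovl2, which elongates very long polyunsaturated fatty acids such as the precursors of docosahexaenoic acid, stood at 185, 182, 213 and 209.7 CPM in WT and 164, 159, 170.2 and 136 in KO (log2 fold change -0.33, SE 0.0849, adjusted p 0.0398). Agpat3, an acyltransferase that places docosahexaenoic acid into phospholipids, stood at 3919, 3787, 4352 and 4228 CPM in WT and 3448, 3002, 3241 and 2983 in KO (log2 fold change -0.36, SE 0.0853, adjusted p 0.0201). Groups were separate for both, but the call for Elovl2 was lost in 10 of 17 alternatives, with an adjusted p of up to 0.16 when 1 library was left out (WT replicate 3). The call for Agpat3 was lost in 8, with an adjusted p of up to 0.0935 when 1 library was left out (WT replicate 3). Of 25 cholesterol genes, Lss, lanosterol synthase, rose by 0.27 (adjusted p 0.0365), a call lost in 11, with an adjusted p of up to 0.127 when 1 library was left out (WT replicate 3). Of 21 autophagy genes, Wipi1, which binds phosphoinositides on forming autophagosomes, fell by 0.33 (adjusted p 0.0221), a call lost in 8, with an adjusted p of up to 0.118 when 1 library was left out (WT replicate 1). Lss and Wipi1 were the only calls of the cholesterol and autophagy lists (4.0% and 4.76%, against 1.53% of all genes tested). In lists this short, 1 call is no result about the list.

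Markers of other cell types gave 1 call. Nyx (nyctalopin), a synaptic protein of ON bipolar cells, stood at 3.41, 5.03, 2.66 and 3.05 CPM in WT and 9.33, 10.1, 8.76 and 6.02 in KO (log2 fold change 1.28, SE 0.204, adjusted p 0.000211), without overlap. The other 13 bipolar markers were not called, and the list's median was 0.05. Its summed level was 728.0 to 904.7 CPM in WT and 666.2 to 1069.6 in KO. These markers belong to the level known to be closest between the genotypes when CT22 was chosen, so their values do not test cell content. At the other times 12 of the 14 bipolar markers were called higher, with a median log2 fold change of 0.68. Rpe65, the isomerase of the pigment epithelium, stood at 10.1, 2.52, 1.04 and 3.68 CPM in WT and 1.35, 1.01, 1.96 and 2.44 in KO, with the highest value in WT replicate 1. The 13 tested markers of that epithelium had a median log2 fold change of -0.56, and none was called in edgeR (4 at an unadjusted p under 0.05, 1 called by DESeq2). For the 17 lens markers the median was -0.68, again with no call (1 at an unadjusted p under 0.05, 0 by DESeq2).

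Genes near the targeted loci were counted because alleles linked to a mutation are bred along with it. Within 10 Mb of Per2 7 of 119 tested genes were called (5.88%), compared with 10 of 927 (1.08%) farther than 20 Mb away on chromosome 1. Within 1, 5 and 20 Mb of Per2 there were 2 of 16 (12.5%), 3 of 81 (3.7%) and 9 of 225 (4.0%). The 7 include Rhbdd1, Col4a4 and Col4a3, which lie next to each other, 8.69 to 8.97 Mb from Per2, so the 7 are not separate places. Within 10 Mb of Per1 7 of 338 were called (2.07%), compared with 14 of 756 (1.85%) farther than 20 Mb away on chromosome 11. Within 1, 5 and 20 Mb of Per1 there were 2 of 67 (2.99%), 4 of 151 (2.65%) and 11 of 563 (1.95%). The highest share of any whole chromosome was that of chromosome 10, which holds neither gene, with 24 of 837 (2.87%). Whether linked sequence differs between these mice was not tested.

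Near Per2, Klhl30 (chromosome 1, 91351016 to 91362416) lay 0.0536 Mb away. It stood at 0.631, 0.734, 2.02 and 0.246 CPM in WT and 3.58, 4.21, 4.596 and 3.99 in KO (log2 fold change 2.15, SE 0.418, adjusted p 0.00321). Its neighbour Erfe, the hormone erythroferrone, was counted in 1 of 4 WT libraries and in all 4 KO libraries, at 0.398, 0.174, 0.0932 and 0.258 CPM in KO (adjusted p 0.00396). Its call was lost in 3 alternatives, with only the CT22 libraries, with the replicate block (adjusted p 0.161) and without WT replicates 1 and 6, and DESeq2 gave it no adjusted p. These levels are too low for a fold change, and Erfe shares exons with Ilkap on the opposite strand. D2hgdh, which oxidises D-2-hydroxyglutarate in mitochondria, lay 2.37 Mb away and fell from 6.84, 7.24, 7.45 and 9.58 CPM in WT to 3.98, 3.31, 2.98 and 3.803 in KO (log2 fold change -1.14, SE 0.241, adjusted p 0.00725). Col4a4 (82448423 to 82586849, minus strand) and Col4a3 (82586921 to 82722059, plus strand) lay 8.83 and 8.69 Mb from Per2 and 0.072 kb from each other. Without WT replicates 1 and 6 the calls of D2hgdh and Klhl30 were lost, that of Klhl30 also with only the CT22 libraries. Rhbdd1, a rhomboid-like protease gene on their other side, rose by 0.35 (adjusted p 0.0219), a call lost in 9 of 17 alternatives, with an adjusted p of up to 0.0853 when 1 library was left out (KO replicate 3).

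Near Per1, Kctd11 and Acap1 lay 0.768 and 0.772 Mb away, 0.161 kb from each other. Kctd11, an adaptor of a ubiquitin ligase, stood at 5.74, 5.42, 5.19 and 7.68 CPM in WT and 3.73, 3.76, 3.14 and 3.69 in KO (log2 fold change -0.75, SE 0.183, adjusted p 0.0267), a call lost in 9 of 17 alternatives, with an adjusted p of up to 0.167 when 1 library was left out (WT replicate 6). Acap1, a GTPase-activating protein for ARF6, was low throughout, at 0.441, 0.455, 0.672 and 1.298 CPM in WT and 0.122, 0, 0 and 0.148 in KO (adjusted p 0.00878), a call lost in 5 of 17 alternatives, with an adjusted p of up to 0.0566 when 1 library was left out (WT replicate 6) and 0.0515 without KO replicate 3. Smyd4 rose by 0.41 (adjusted p 0.0499) and Mprip, a myosin phosphatase partner, fell by 0.25 (adjusted p 0.0453), calls lost in 12 and 13 of 17 alternatives.

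**Figure D4:**
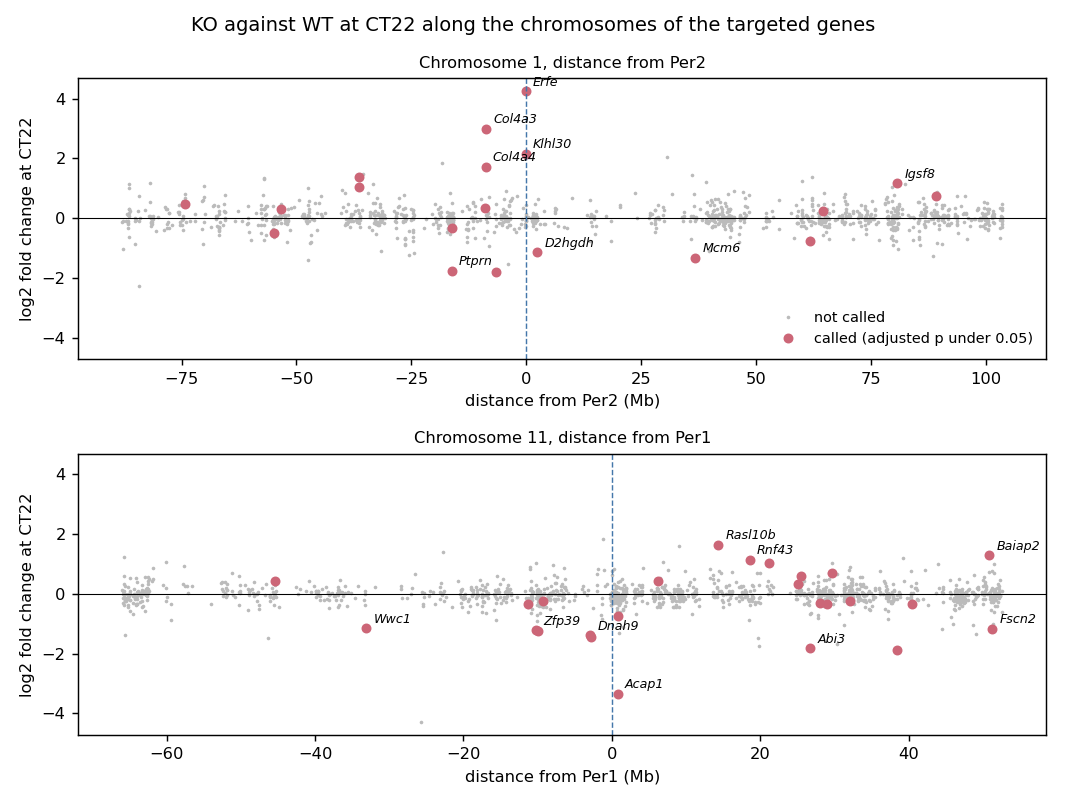
Log2 fold change (KO against WT at CT22) of every tested gene on chromosomes 1 and 11 against its distance in Mb from Per2 and Per1. Large points are the called genes; 7 lie within 10 Mb of each targeted gene.

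Called neighbours were also counted over the whole genome, the targeted loci included. Another called gene lay within 500 kb of 85 of the 273 called genes (31.1%), compared with 3344 of 17858 tested genes (18.7%). The 85 include genes whose positions overlap, such as Tef and Gm17597, which may share reads. Of 46 pairs of neighbouring called genes, 36 do not overlap. Of 36 pairs of neighbouring called genes that do not overlap, 25 had the same direction. Fabp7 and Smpdl3a, a phosphodiesterase of the sphingomyelinase family, lay 5.89 kb apart on chromosome 10. Smpdl3a was low, at 1.32, 1.19, 0.764 and 0.947 CPM in WT and 0.184, 0.209, 0.311 and 0.148 in KO (log2 fold change -2.28, adjusted p 6.73e-05), and both fell, with the call of Smpdl3a lost under the replicate block. Ptprn and Dnajb2, a neuronal co-chaperone, lay 1.33 kb apart, and Dnajb2 fell by 0.34 (adjusted p 0.0201), a call lost in 9 of 17 alternatives, with an adjusted p of up to 0.134 when 1 library was left out (KO replicate 2). Ndrg1 and the sialyltransferase gene St3gal1, 133.2 kb apart on chromosome 15, both fell, St3gal1 by 0.48 (adjusted p 0.0217), a call lost in 7, with an adjusted p of up to 0.138 when 1 library was left out (WT replicate 6). Smpdl3a, Dnajb2 and St3gal1, like Erfe and Acap1, were named after their values were seen.

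The genotypes were also compared in the 24 libraries of the other times, none of which is a CT22 library. Both comparisons come from 1 fit and share its scaling and its estimate of the spread, so they are not fully independent. Averaged over CT19, CT1 and CT10, 2493 genes were called (13.9%; 1655 higher, 9.26%, and 838 lower, 4.69%). With the inner retina level as a covariate 498 genes were called at the other times, and 319 with the lens level added. Of the 273 genes called at CT22, 197 were called at the other times in the same direction without covariates. This is 72.2% of the CT22 calls and 7.90% of the calls at the other times. How many of the 197 stay called with the covariates is not given here. The sign was the same for 258 of the 273. Among the 85 genes with a log2 fold change of at least 1 at CT22, 73 were called in the same direction, and among the 112 genes below 0.58, 60 were. At single times the calls numbered 928 at CT19 (5.19%), 282 at CT1 (1.58%) and 1825 at CT10 (10.2%), and 88 genes were called at all 4 times.

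All 14 called clock genes had the same sign at the other times. Per2 had a log2 fold change of 2.57 at CT22 and 2.77 at the other times, Ciart 2.98 and 2.79, Dbp 1.94 and 1.79, Cry2 1.11 and 1.23, Arntl -0.73 and -0.75, and Nfil3 -1.44 and -1.46. Outside the clock, Col4a3 had 2.99 and 3.003, Hcls1 -2.25 and -2.204, Fabp7 -4.76 and -4.17, and Fscn2 -1.16 and -1.44. Other genes stood closer to 0 at the other times: Ptprn had -1.76 at CT22 and -0.64 elsewhere, and Lrfn2 -1.37 and -0.25.

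The test of whether the genotype difference at CT22 departs from that of the other times called no gene in edgeR (0.0%), with 1481 genes (8.29%) at an unadjusted p under 0.05 and a smallest adjusted p of 0.152. DESeq2 called 28 genes in the same test, with 1617 at an unadjusted p under 0.05. The following genes were chosen after their values were seen. Lgr5, a stem cell receptor for R-spondins, stood at 17.2, 15.1, 19.98 and 21.9 CPM in WT and 15.1, 9.23, 10.3 and 11.3 in KO (log2 fold change -0.69 at CT22, adjusted p 0.0291, and 0.35 at the other times), with KO replicate 1 level with the lowest WT library. It was the 1 gene called in opposite directions. Etv5, an ETS transcription factor, stood at 28.8, 24.9, 30.8 and 28.04 CPM in WT and 19.8, 10.6, 15.2 and 12.4 in KO (log2 fold change -0.96 at CT22, adjusted p 0.0189, and 0.36 elsewhere). Dip2b, a DISCO-interacting protein, stood at 150.5, 146, 155 and 162 CPM in WT and 120.1, 95.97, 88.9 and 74.7 in KO, with -0.69 and -0.13, and E2f3, a cell cycle transcription factor, had -0.56 and 0.0059. The CT22 calls of Lgr5 and Etv5 were lost in 8 and 6 of 17 alternatives. For none of the 4 did the difference between times pass in edgeR.

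**Figure D5:**
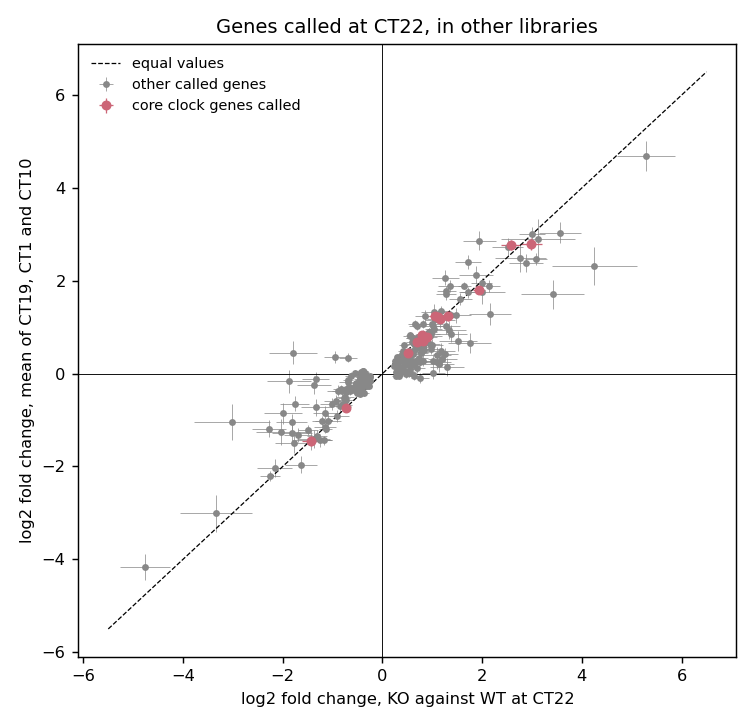
Log2 fold change at CT22 (x axis) against the mean log2 fold change of CT19, CT1 and CT10 (y axis) for the 273 genes called at CT22, with standard errors as bars and the called clock genes in colour. Clock genes lie near the line of equal values, as with Per2 at 2.57 and 2.77; genes called at CT22 were selected on the x axis.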

How the data were processed

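The values used were raw read counts per Ensembl gene, 1 table of 54232 genes by 32 libraries deposited by the authors. The submitters' processing notes name HISAT2 2.1.0, HTSeq 0.11, Trimmomatic 0.32 and Cufflinks, without their order, and the build GRCm38.p6. How strand and multiply matching reads were handled, and which annotation was used, is not given in the sources used here. Gene names and positions came from GENCODE for GRCm38 and named 99.9% of identifiers. Promoters came from RefSeq (GRCm38.p6).

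In edgeR 4.0.16 (R 4.3.3), filterByExpr (minimum count 10, minimum total 15) kept 17871 genes, 19506 being 0 in all libraries. After TMM scaling, all 32 libraries entered 1 robust quasi-likelihood fit with 8 group means and 24 residual degrees of freedom (biological coefficient of variation 0.199). The contrasts were KO against WT at CT22, the same difference over the other times, and the difference between these. Adjusted p-values are Benjamini-Hochberg over the tested genes, and called means under 0.05. SE is the standard error of the log2 fold change, with a median of 0.186 over all tested genes, 0.0962 for 5441 genes at 5 log2 CPM and over, and 0.436 for 5675 genes under 1. The fold change and its interval are from the fit. Marker levels are mean log2 CPM, compared by exact permutation tests (two-sided, SciPy 1.17.1). The procedure was tested on simulated counts.

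The labels give animal numbers, and p-values measure the spread between these libraries. Within the CT22 groups every pair of libraries differed beyond counting error (chi-square divided by its degrees of freedom, 19.1 to 84.3). The members and gene lists were chosen with earlier results of these data known. Named genes are all core clock genes, the 15 highest and 15 lowest log2 fold changes and 12 smallest p-values among called genes with an average of at least 1 log2 CPM, called list members or otherwise up to 3 with the smallest p, and up to 5 called genes nearest to each targeted gene. Provisional symbols and pseudogenes were left out of the ranked choices. Not all genes that this rule takes are described, and a few list members are not reported here. Marker genes without a call are mostly given by their list. The marker lists of astrocytes, blood, choroid and sclera, amacrine, horizontal, ganglion, vessel, microglia and cone cells had 0 calls. This does not mean equal cell content. Summed cone markers stood at 2219 to 2659 CPM in WT and 1884 to 2210 in KO, with all 6 log2 fold changes negative. Summed ganglion cell markers stood at 18.7 to 38.3 CPM in WT and 38.4 to 48.6 in KO, with all 10 positive. The mean log2 CPM of both lists overlapped, as did the summed levels of the other lists named here. Alternatives were DESeq2 1.42.0, its size factors, no filter, only CT22 libraries, marker levels as covariates, blocks and leaving out libraries.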

Additional observations from a re-analysis of the deposited data

Results flagged for a closer look

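In 10 of 264 groups of 4 libraries examined, 1 library stood apart from the other 3 by more than Dixon's limit for a gap relative to the range; chance alone gives about 1 in 20 groups, so 10 is no more than chance gives. Among clock genes, Arntl stood at 164.7 CPM in WT replicate 1 against 153.9 to 154.5 in the others, Per3 at 473 CPM in KO replicate 4, with the next library at 339, and Nfil3 at 24.0 CPM in WT replicate 3, below 25.9 in the next. In each of these, the outlying value stayed on its own group's side. Unc5c stood at 7.59 CPM in WT replicate 2 against 4.04 in the next library, and Kctd11 at 3.14 CPM in KO replicate 3 against 3.69. Atp8a1 stood at 79.7 CPM in KO replicate 2, mt-Nd5, a mitochondrially encoded subunit of complex I, at 1815 CPM in KO replicate 1 against 1275 in the next, and Col1a1, a fibrillar collagen, at 1.06 CPM in KO replicate 3 against 0.418. Erfe was at 0.0306 CPM in WT replicate 3 and at 0 in the other WT libraries. The mean level of bipolar markers was 5.30 log2 CPM in KO replicate 2 against 4.75 in the next KO library.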

How the results depend on the processing

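Of the 273 genes called at CT22, 105 to 269 were still called under each of 17 alternatives, and none changed sign. Of the 14 called clock genes, 13 were called under all 17. The calls (higher, lower) numbered 445 (260, 185) by DESeq2's Wald test, 112 (74, 38) with only the CT22 libraries and 118 (79, 39) without WT replicates 1 and 6, an alternative added after seeing the data; without a filter on low counts, 73 were lower. With 1 library left out, 170 to 286 were called, 103 to 158 higher and 55 to 128 lower. At the other times 498 genes were called with the inner retina level as a covariate and 319 with the lens level added; CT22, with 279 under the former, was chosen as the time when that level is closest between the genotypes. The difference between CT22 and the other times called 28 genes by DESeq2, 1 with either set of covariates, 2 with library number set as a block, and 0 to 4 with 1 library left out. Replicate numbers 1, 2 and 3 occur in both genotypes. Deviations of same-numbered libraries had correlations of -0.0015, 0.0792 and -0.301, and all pairs of a WT and a KO library ran from -0.309 to 0.381. So few values cannot show whether equal numbers mark a shared litter or day, which is not stated. No pairing was used in the main fit. The replicate block was a fit of only the CT22 libraries with the replicate number as a block. WT replicate 6 and KO replicate 4 have no counterpart of the same number, so they add nothing to its genotype difference. In this fit 301 genes were called, 128 higher and 173 lower, and 134 of the 273 were still called. With 1 library left out, the KO-WT difference ran from -0.0235 to 0.199 for the inner retina level and from -0.945 to 0.488 for the lens level. The log2 fold change changed sign, without a call, with 1 library left out for Csnk1e (-0.0623 to 0.0225), Fbxl21 (-0.33 to 0.191), Arr3 (-0.427 to 0.0256) and Col1a1 (-0.124 to 0.787), and for Prkar2a (0.0460 with the replicate block, 0.0574 without WT replicates 1 and 6). Over 117 named genes and 17 alternatives, 1769 of 1986 values (leaving out those for which DESeq2 gave no adjusted p) kept direction and call, 183 lost the call, 23 gained it and 11 changed sign; the cause was not tested.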
